A study of Mus musculus with 16 samples.

Results

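Methionine is activated to S-adenosylmethionine, the methyl donor of the cell, and what is left after the methyl group has been passed on is recycled to methionine or committed to cysteine. The 9 genes described here carry the steps of this cycle and its exit, and they were taken from the counts table by symbol. They are Mat1a and Mat2a, which encode the synthetases of S-adenosylmethionine, Gnmt, Pemt and Nnmt, which encode methyltransferases that spend it, Ahcy, which clears the S-adenosylhomocysteine left behind, Bhmt, which remethylates homocysteine, and Cbs and Cth, which carry homocysteine through transsulfuration to cysteine. All 9 were among the 41079 genes of the table and all 9 were among the 16742 that passed the filter on low counts. The liver holds most of the body's capacity for these reactions, and Mat1a, Gnmt and Bhmt are known as enzymes of hepatocytes. Glucagon, acting on hepatocytes through its receptor and cyclic AMP, is known to raise amino acid breakdown in the liver, so the cycle lies next to the pathway that was removed.

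The mice were C57BL/6J animals whose Gcgr gene, encoding the glucagon receptor, was flanked by LoxP sites in every group. In LKO mice an Albumin-Cre transgene removed the flanked exons, and their CRE- controls carried the same floxed gene without Cre. The Albumin promoter acts in hepatocytes and acts early, so the receptor was lost for life and only in cells that use that promoter. Livers of males and females aged 20 to 22 months were compared, with 4 CRE- and 4 LKO mice of each sex, or 16 libraries of poly-A RNA in all. The question was how loss of the hepatic receptor changed the expression of these genes in aged males and in aged females.

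Between 33268424 and 56488920 reads per library fell on genes. Levels are given as CPM, the reads of a gene scaled to its library's total and TMM factor, and fold changes as log2 of LKO over CRE- with their standard errors (SE). Genes were tested with the quasi-likelihood F test of edgeR, whose p-values were adjusted over the 16742 genes by the method of Benjamini and Hochberg (edgeR adjusted p), and those under 0.05 are called DEGs. Since these were whole livers, fewer cells of a type and less RNA per cell cannot be told apart in any value that follows. The labelled tissue was checked by hepatocyte markers. Of 7 such markers 6 matched a symbol of the table and Tf did not, and Alb, the most abundant per length, was read at 41687 to 105500 CPM in the 16 libraries.

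The targeted gene was examined first. Gcgr was at 190.4, 193, 127 and 189.6 CPM in male CRE- replicates 1 to 4 and at 117, 136, 129.9 and 160.3 CPM in male LKO replicates 1 to 4. Levels in females were 162, 208, 201 and 180.0 CPM in CRE- and 48.8, 132, 119 and 93.6 CPM in LKO mice. Every female LKO mouse lay below every female control, whereas the male groups overlapped through CRE- replicate 3. The log2 fold change was -0.93 ± 0.25 (SE) in females (edgeR adjusted p = 0.0443, 4 of 4 LKO mice lower) and -0.37 ± 0.24 (SE) in males (edgeR adjusted p = 0.671), and the mean of both had an edgeR adjusted p of 0.0555 at -0.65 ± 0.17 (SE). The female call was lost on leaving out male CRE- replicates 1 or 4, any 1 male LKO library, any 1 female CRE- library or female LKO replicates 1, 3 or 4 (edgeR adjusted p 0.0506 to 0.136), and also with upper-quartile factors, without a filter on low counts and with each sex fitted alone (edgeR adjusted p = 0.0707, 0.0545 and 0.132). The mean effect passed without male CRE- replicate 3 (edgeR adjusted p = 0.0393) or female LKO replicates 1 or 2 (0.0342 and 0.0295). It also passed with a replicate block (edgeR adjusted p = 0.039) and by DESeq2 (adjusted p = 0.0105), and DESeq2 called Gcgr in females too. Without the 3 libraries described below the edgeR adjusted p was 0.0163 for the mean effect (-0.53) and 0.129 for females (-0.56). Reads on exons that Cre does not remove were part of the same count, so the level of the gene checked the labels only in part.

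Some libraries stood apart from the others of their group. The root mean square log2 distance over all genes tested to the mean of the other 3 libraries of the group was 1.08 in female LKO replicate 1, 0.991 in male CRE- replicate 3, 0.936 in female LKO replicate 4 and 0.827 in male LKO replicate 1, against 0.565 to 0.777 in the other 12. Cyp2e1, an abundant enzyme of the hepatocytes around the central vein, was at 1378 CPM in female LKO replicate 1, the lowest of all 16, and at 1492 CPM in male CRE- replicate 3, against 5229 CPM in the next lowest of its group. The Gcgr level of male CRE- replicate 3 lay within the range of the male LKO mice, so that gene did not bear out its label. Its levels of Mthfd2, Aldh1l2, Chac1 and Csad and its periportal marker sum, all given below, lay with those of the other male controls, outside the range of the male LKO mice. Those genes and sums were picked out with this library counted as a control, and whether its label is right was not tested further. For whole groups, the paper reports that expression of the receptor was lowered in the liver and in no other tissue it read. Without male CRE- replicate 3 the male value of Gcgr was -0.51 (edgeR adjusted p = 0.792), and edgeR called 26 genes in males. Female LKO replicate 4 stood out by its neutrophil markers, which are given at the end. Results are therefore also given without the 3 libraries farthest from their groups (female LKO replicates 1 and 4 and male CRE- replicate 3), a choice made after seeing the data.

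Among the 9 genes the LKO effect was downward more often than upward, and Cbs alone passed the test. In males 0 of 9 were DEGs by edgeR (0 by DESeq2), where 76 of all genes tested, or 0.454%, were called. Of the 9, 1 was at an unadjusted p under 0.05, as were 1595 of the 16742 genes. In females 1 of 9 was a DEG (Cbs, lower), where 710 genes, or 4.24%, were called. A count of 1 in 9 genes is too coarse to be read against that share. In females 5 of the 9 were at an unadjusted p under 0.05, as were 3584 of the 16742 genes. The mean LKO effect over the sexes, which uses the same mice, again called Cbs alone, with 478 genes or 2.86% called in all. In this effect 5 of the 9 were at an unadjusted p under 0.05, as were 2647 of the 16742 genes. DESeq2 called 4 of the 9 in females (Mat2a higher, and Gnmt, Ahcy and Cbs lower), where it called 1816 of the 16742 genes, and 4 in the mean effect (Gnmt, Bhmt, Ahcy and Cbs, all lower), where it called 1034. The median log2 fold change of the 9 was -0.26 in males (6 below 0), -0.53 in females (8 below 0) and -0.48 in the mean effect (7 below 0), and over all genes tested it was -0.01, 0.04 and 0.02. The median of the 6 hepatocyte markers was 0.01 in males and -0.37 in females (5 of 6 below 0), and that of the 6 periportal markers was -1.03 in males and -0.88 in females (5 of 6 below 0 in each), and the part of either in the values of the 9 was not tested. By the levels alone, the LKO and CRE- mice did not overlap for 1 of the 9 in males (Bhmt) and 3 of the 9 in females (Gnmt, Ahcy and Cbs), all lower in LKO mice. Such a separation was seen for 6.49% of all genes tested in males and 11.6% in females.

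**Figure D1:**
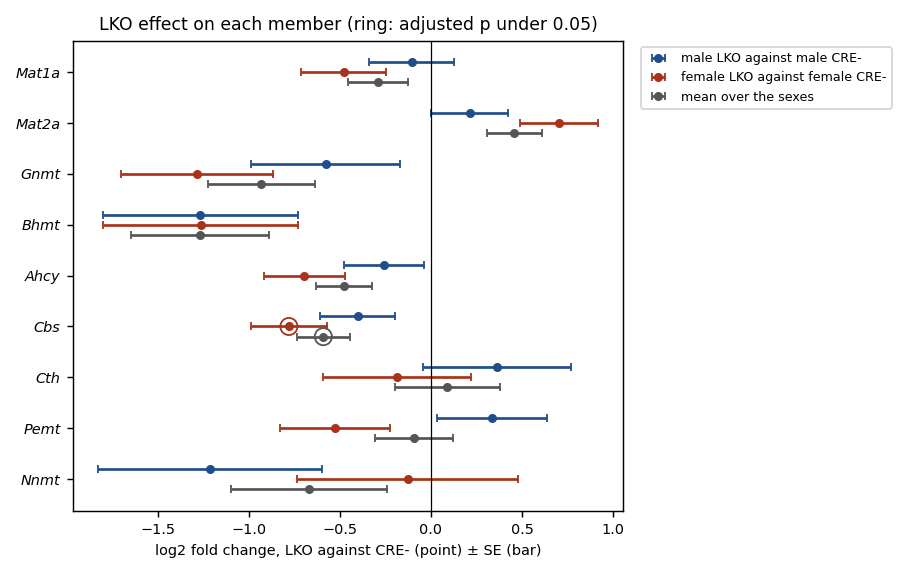
Log2 fold change of LKO over CRE- (horizontal axis) for each of the 9 genes in males, in females and in the mean over the sexes, with bars for the SE and a ring where the adjusted p was under 0.05. The only rings are those of Cbs, at -0.78 in females and -0.59 in the mean, and Mat2a is the only gene to the right of 0 in females.

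Per length of transcript the 9 genes spanned a wide range in every group. In female CRE- mice the mean level (CPM per kb of exon, ± SD, n = 4) was 2247 ± 848 for Bhmt, 2059 ± 639 for Gnmt, 939 ± 75.0 for Mat1a and 549 ± 70.0 for Ahcy. Below these came Pemt at 295 ± 62.2, Cbs at 254 ± 13.4 and Cth at 212 ± 51.8 CPM per kb, and far below them Nnmt at 31.4 ± 13.7 and Mat2a at 16.3 ± 2.83 CPM per kb. Neighbours in this order overlapped for Bhmt and Gnmt, for Pemt and Cbs, for Cbs and Cth, and for Nnmt and Mat2a, while Mat1a and Ahcy were each apart from the genes next to them. In female LKO mice the order was the same except that Cth, at 186 ± 124 CPM per kb, stood above Cbs, at 148 ± 38.2, with overlapping values. In males Mat2a stood above Nnmt, at 21.5 ± 5.12 and 19.3 ± 9.17 CPM per kb in CRE- mice (overlapping) and 24.9 ± 4.66 and 8.35 ± 6.26 CPM per kb in LKO mice (not overlapping). The synthetase genes thus lay far from each other, Mat1a among the highest 3 and Mat2a among the lowest 2 of every group.

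The synthetases came first. Mat1a encodes the catalytic subunit of the liver-type methionine adenosyltransferase. It was at 2289, 3954, 2409 and 2279 CPM in male CRE- and at 2264, 2979.8, 2315 and 2599.9 CPM in male LKO replicates 1 to 4. In females the levels were 3273, 3010.3, 3241 and 3646 CPM in CRE- and 1686, 2556, 1988 and 3213 CPM in LKO mice. The male groups overlapped throughout, and in females LKO replicate 4 reached the range of the controls while the other 3 lay below it. Its log2 fold change was -0.11 ± 0.23 (SE) in males (edgeR adjusted p = 0.915) and -0.48 ± 0.23 (SE) in females (edgeR adjusted p = 0.247), so no change passed the test. Without male CRE- replicate 2, which had the highest level of its group, the male value was 0.13.

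Mat2a encodes the form of the synthetase that most other tissues and growing cells use. It was at 88.6, 86.2, 64.1 and 52.8 CPM in male CRE- and 102, 88.4, 63.6 and 84.3 CPM in male LKO mice, with overlap. Among females it stood at 49.2, 55.3, 68.8 and 47.6 CPM in CRE- and 64.2, 93.3, 90.8 and 112 CPM in LKO mice, where all LKO mice but replicate 1 lay above every control. The female log2 fold change of 0.70 ± 0.21 (SE) had an unadjusted p of 0.00444 and an edgeR adjusted p of 0.0701, and that of males was 0.21 ± 0.21 (SE) (edgeR adjusted p = 0.785). The gene passed in females when LKO replicate 1 was left out (0.86, edgeR adjusted p = 0.0478) and by DESeq2 (0.72, adjusted p = 0.0201).

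The ratio of Mat1a to Mat2a, both per length, is described with no test. Since Mat1a leaned down and Mat2a up in females, a ratio of the 2 parts the female groups more readily than either gene does, so their separation below adds nothing to the values of each gene. It was 25.0, 44.3, 36.3 and 41.7 in male CRE- mice and 21.5, 32.6, 35.2 and 29.8 in male LKO mice. In females it was 64.2, 52.6, 45.6 and 74.0 in CRE- and 25.4, 26.5, 21.2 and 27.8 in LKO mice. Every female LKO mouse, including the libraries that stood apart, lay below every female control, with means of 25.2 ± 2.87 in LKO and 59.1 ± 12.6 in CRE- mice (SD, n = 4 each). The male means were 36.8 ± 8.59 in CRE- and 29.8 ± 5.93 in LKO mice (SD, n = 4 each), with overlap.

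**Figure D2:**
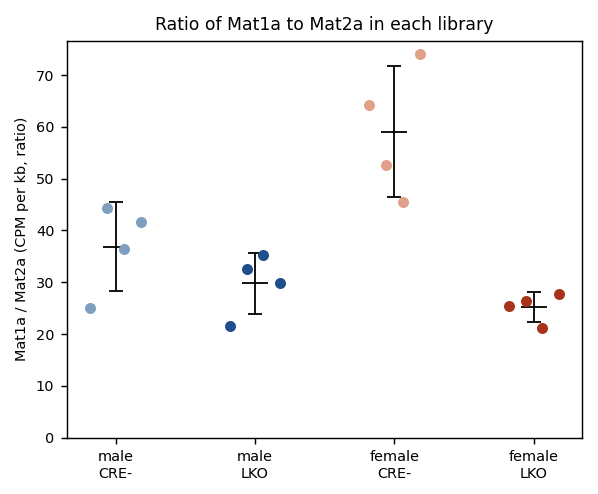
Ratio of Mat1a to Mat2a (CPM per kb over CPM per kb, vertical axis) in each of the 16 libraries, with black bars for the mean ± SD of each group. The 4 female LKO points lie between 21.2 and 27.8, below the female CRE- points, which lie between 45.6 and 74.0.

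The Mat2a messenger is known as a target of METTL16, an RNA methyltransferase that binds hairpins in its tail when S-adenosylmethionine is scarce and so helps the messenger to be spliced and kept. The sites are shown because Mat2a alone leaned upward in females. The letters TACAGAGAA or TACAGAAAA were searched on the sense strand of the canonical transcript (GENCODE vM39, GRCm39, minus strand of chromosome 6), and 6 matches were found, all in exon 9 and in the 3 prime UTR. Their positions were chr6:72411220-72411244, chr6:72410436-72410460, chr6:72410257-72410281, chr6:72410142-72410166, chr6:72410031-72410055 and chr6:72409923-72409947. In the 25 bases around each, given in the same order from 5′ to 3′, capitals mark the letters searched:
Mat2a site 1: gcgtaggtTACAGAGAAgccttcaa
Mat2a site 2: ttgtgataTACAGAGAAgtcacagg
Mat2a site 3: ggtgtagcTACAGAGAAaccagctt
Mat2a site 4: ggcgtaagTACAGAGAAgccatcac
Mat2a site 5: aggtgtccTACAGAAAAaccttggg
Mat2a site 6: tggtgtggTACAGAGAAgccagctt
Of 21757 canonical protein-coding transcripts searched the same way, 1851 or 8.51% held at least 1 match, and Mat2a was the only one with 6 or more, which is 0.0046% of them. Since Mat2a was already known as a target of METTL16, its place at the top of this count is no separate evidence. A match describes the letters only, and binding, methylation and splicing were not measured in these libraries.

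The methyltransferases followed. Gnmt, which methylates glycine to sarcosine and is known as the liver's outlet for surplus S-adenosylmethionine, was at 1686, 1956, 1885 and 3171 CPM in female CRE- and 293, 1486, 698 and 1096 CPM in female LKO mice. Male levels were 1046, 1757, 664 and 1813 CPM in CRE- and 596, 877, 1107 and 955 CPM in LKO mice. All female LKO mice lay below all female controls, replicate 2 nearest to them, and the male groups overlapped, with CRE- replicate 3 the second lowest of the 8 males. The log2 fold change was -1.28 ± 0.42 (SE) in females (unadjusted p = 0.00692, edgeR adjusted p = 0.0848) and -0.58 ± 0.41 (SE) in males (edgeR adjusted p = 0.694). Without female LKO replicate 2, the highest of its group, the female value was -1.64 and passed (edgeR adjusted p = 0.0333), as did the mean effect (-1.11, edgeR adjusted p = 0.0454), and without the 3 libraries that stood apart it was -0.98 (edgeR adjusted p = 0.242).

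Pemt, which makes phosphatidylcholine by methylating phosphatidylethanolamine, was at 223, 289, 129 and 301 CPM in male CRE- and 351, 296, 238 and 304 CPM in male LKO mice, with overlap. In females it was at 306, 362, 383 and 500.4 CPM in CRE- and 126, 338, 266 and 348 CPM in LKO mice, with LKO replicate 1 far below the rest. The log2 fold change was 0.34 ± 0.30 (SE) in males (0.12 without male CRE- replicate 3) and -0.53 ± 0.30 (SE) in females (-0.27 without LKO replicate 1), and their difference of -0.86 ± 0.43 (SE) did not pass (unadjusted p = 0.0602, edgeR adjusted p = 0.33).

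Nnmt, which spends a methyl group on nicotinamide, varied most between mice of a group relative to its mean. Its levels were 64.2, 114, 31.1 and 81.4 CPM in male CRE- and 25.0, 15.4, 66.0 and 18.9 CPM in male LKO mice. Female levels were 169.6, 79.1, 68.6 and 154 CPM in CRE- and 23.1, 213, 44.2 and 151 CPM in LKO mice, where replicate 2 was the highest of all 16 and replicate 1 was among the lowest. Male LKO mice other than replicate 3 lay below every male control, and the male log2 fold change of -1.21 ± 0.62 (SE) had an unadjusted p of 0.0659 (edgeR adjusted p = 0.563). The female value of -0.13 ± 0.61 (SE) (edgeR adjusted p = 0.933) changed sign on leaving out female CRE- replicates 1 or 4 or female LKO replicates 1 or 3 (0.05 to 0.21).

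**Figure D3:**
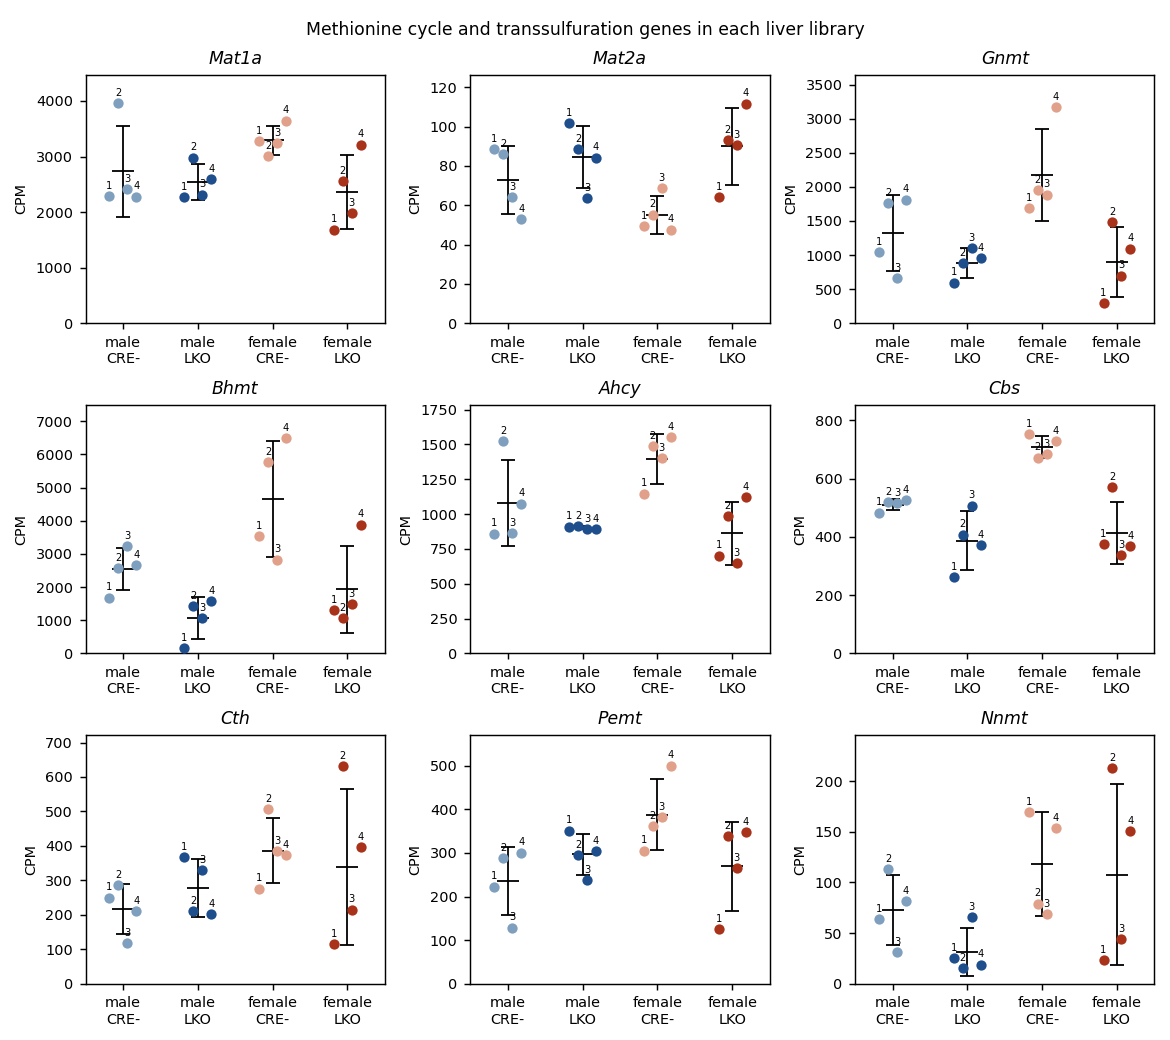
CPM (vertical axes, from 0) of the 9 genes in each of the 16 libraries by group, with the replicate number over each point and black bars for the mean ± SD. Female LKO points of Gnmt, Ahcy and Cbs and male LKO points of Bhmt lie below all points of their controls.

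Ahcy and Bhmt handle the homocysteine that follows. Ahcy, the hydrolase that splits S-adenosylhomocysteine and so relieves its inhibition of methyltransferases, was at 859.6, 1521, 866 and 1075 CPM in male CRE- and 909.8, 915, 894 and 892 CPM in male LKO mice. Levels in females were 1147, 1488, 1399.8 and 1554 CPM in CRE- and 701, 983, 648 and 1119.9 CPM in LKO mice. The 4 male LKO mice were close together inside the range of the male controls, and the female groups did not overlap, with LKO replicate 4 just under CRE- replicate 1. The log2 fold change was -0.69 ± 0.22 (SE) in females (unadjusted p = 0.00609, edgeR adjusted p = 0.0808, 4 of 4 LKO mice lower) and -0.26 ± 0.22 (SE) in males (edgeR adjusted p = 0.747). The male value was -0.05 without male CRE- replicate 2.

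Bhmt, which returns homocysteine to methionine with a methyl group from betaine, had similar fold changes in both sexes. It was at 1685, 2584, 3234 and 2668 CPM in male CRE- and 162, 1419, 1078 and 1568 CPM in male LKO mice. Among females it stood at 3526, 5764, 2828 and 6499 CPM in CRE- and 1306, 1075, 1482 and 3881 CPM in LKO mice. All 4 male LKO mice lay below all male controls, replicate 1 by far the lowest, and in females LKO replicate 4 lay within the range of the controls. The log2 fold change was -1.27 ± 0.54 (SE) in males (edgeR adjusted p = 0.451) and -1.27 ± 0.54 (SE) in females (edgeR adjusted p = 0.178), and the mean of both had an unadjusted p of 0.00399 (edgeR adjusted p = 0.0893). The mean effect passed without female LKO replicate 4 (-1.57, edgeR adjusted p = 0.0278). Bhmt lies at chr13:93753399-93774266 on the minus strand, 18338 bases from its paralogue Bhmt2.

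Near-identical copies bear on the counts of these 2 genes. The genome holds 2 copies of the Bhmt transcript with at least 97% identity over at least 150 bases, covering 75.2% of its length at up to 99.4% identity, and 2 of the Ahcy transcript, covering 81.9% at up to 99.7%. The other 7 genes had no such copy. Reads that map to several places were left out by the authors' counting. Whether and how far this lowered the counts of Bhmt and Ahcy was not measured, so their levels per length, and their order against the other genes, carry that doubt.

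Transsulfuration opens with Cbs, which joins homocysteine to serine, and it held the only DEG call. Cbs was at 484, 519.9, 515 and 526 CPM in male CRE- and 261, 408, 508 and 371 CPM in male LKO mice. In females it was at 752, 672, 684 and 728 CPM in CRE- and 375, 571, 338 and 368 CPM in LKO mice. All female LKO mice lay below all female controls, with replicate 2 nearest to them, and the male groups overlapped only through LKO replicate 3, which lay above CRE- replicate 1. Cbs fell by 0.78 on the log2 scale in females (SE 0.21, unadjusted p = 0.00158, edgeR adjusted p = 0.0447, 4 of 4 LKO mice lower) and by 0.59 in the mean effect (SE 0.15, edgeR adjusted p = 0.0375). The male value was -0.40 ± 0.21 (SE) (edgeR adjusted p = 0.568), and the difference between the sexes was -0.38 ± 0.29 (SE) (edgeR adjusted p = 0.513).

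The Cbs call was close to the threshold. In females it was lost on leaving out male CRE- replicates 1 or 4, male LKO replicates 2 or 4, any 1 female CRE- library, or female LKO replicates 1, 3 or 4 (edgeR adjusted p 0.0552 to 0.12, log2 fold change over all 16 such fits -0.98 to -0.70). The mean effect was lost without male CRE- replicates 1, 2 or 4, male LKO replicates 1, 2 or 4, any 1 female CRE- library, or female LKO replicates 1, 3 or 4 (edgeR adjusted p 0.0552 to 0.0747). Without the 3 libraries that stood apart the values were -0.63 in females (edgeR adjusted p = 0.281) and -0.52 in the mean effect (edgeR adjusted p = 0.14). With each sex fitted alone, with upper-quartile factors and without a filter on low counts the female call was also lost (edgeR adjusted p = 0.104, 0.0574 and 0.0651), and without that filter so was the mean effect (edgeR adjusted p = 0.0568). DESeq2 gave adjusted p = 0.00517 in females and 0.00221 in the mean effect.

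Cth, which splits cystathionine to cysteine, is the next step. It was at 250.1, 285, 118 and 210.4 CPM in male CRE- and 368, 211, 329 and 203 CPM in male LKO mice. Female levels were 276, 506, 386 and 374 CPM in CRE- and 116, 631, 215 and 396 CPM in LKO mice, where LKO replicates 1 and 2 were the lowest and the highest of all 16 libraries. The log2 fold changes were 0.36 ± 0.41 (SE) in males and -0.18 ± 0.41 (SE) in females (edgeR adjusted p = 0.813 and 0.846), and the female value was 0.12 without LKO replicate 1 and -0.67 without LKO replicate 2. A difference between Cth and Cbs was not tested.

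The genes whose levels were most like those of Cbs over the 16 libraries, by root mean square difference of mean-centred log2 CPM among 16741 genes, were Pomt1 (0.191), Serpind1 (0.212) and Slc25a15 (0.215). Slc25a15 encodes the ornithine carrier of the urea cycle and Serpind1 the secreted heparin cofactor. Of the other 8 genes described here Ahcy ranked 186 (0.323) and Mat1a ranked 459 (0.365), and the rest ranked from 6153 for Gnmt to 12889 for Bhmt.

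Sex itself was compared in the controls and between the LKO effects. Female CRE- mice read higher than male CRE- mice for 8 of the 9 genes, with a median log2 difference of 0.70 against -0.01 over all genes. The 6 hepatocyte markers also all read higher in female CRE- mice, with a median of 0.30, and their summed level, given below, was higher in every female than in every male control; their part in this was not tested. By edgeR 0 of 9 passed (2 at an unadjusted p under 0.05, Cbs at 0.47 ± 0.21 (SE) and Pemt at 0.72 ± 0.30 (SE), and 0 by DESeq2), where 154 genes or 0.920% were called. Of all 16742 genes, 2121 were at an unadjusted p under 0.05 in this comparison, and DESeq2 called 509. For the difference between the female and the male LKO effect edgeR called 0 of 9 (0 at an unadjusted p under 0.05, 0 by DESeq2) and 0 of all 16742 genes, or 0% (2672 at an unadjusted p under 0.05, 371 by DESeq2). The female effect is therefore not shown to differ from the male effect for any of the 9, and the female comparison shares its controls with the comparison of the sexes.

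The surrounding pathways were followed in 7 lists of 106 genes, of which 104 were tested. In the mean LKO effect 17 of them passed, 6 higher and 11 lower, where 2.86% of all genes tested were called, with a median log2 fold change of -0.14 against 0.02 over all genes. In males 2 passed, both higher (0.454% of all genes), and in females 15 passed, 4 higher and 11 lower (4.24% of all genes). DESeq2 called 6 of them in males, 33 in females and 24 in the mean effect. No list was tested as a set. The choice of the lists, told with the processing, limits what their shares against those of all genes can show. The mean effect is reported first, since for Mthfd2, Aldh1l2, Aldh1l1, Mthfd1, Shmt1, Dmgdh, Chac1, Slc7a11, Csad, Paox and Afmid it stayed under 0.05 in all 22 other fits that gave a mean effect, left-out libraries included.

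The list of betaine, sarcosine and folate one-carbon genes held most of the calls, 10 of 19 in the mean effect (3 higher, 7 lower, against 2.86% of all genes) and 9 of 19 in females (2 higher, 7 lower, against 4.24% of all genes). In males edgeR called 2 of these 19, and DESeq2 called 3 in males, 11 in females and 11 in the mean effect. The 6 with the smallest p are described here. Mthfd2, a mitochondrial enzyme that is low in adult liver, was at 1.58, 1.34, 1.95 and 1.55 CPM in male CRE- and 18.5, 7.79, 5.44 and 6.16 CPM in male LKO mice. Levels in females were 2.57, 1.01, 1.44 and 2.46 CPM in CRE- and 14.9, 3.24, 7.99 and 6.31 CPM in LKO mice, so LKO and CRE- mice did not overlap in either sex. It rose by 2.34 ± 0.33 (SE) on the log2 scale in the mean effect (edgeR adjusted p = 0.00103, 8 of 8 LKO mice higher). Aldh1l2, the mitochondrial 10-formyltetrahydrofolate dehydrogenase, was at 0.406, 0.401, 0.52 and 0.225 CPM in male and 0.444, 0.428, 0.431 and 0.0535 CPM in female CRE- mice and at 10.3, 2.64, 4.77 and 3.03 CPM in male and 1.81, 2.09, 1.87 and 0.289 CPM in female LKO mice, with a mean effect of 2.94 ± 0.45 (SE) (edgeR adjusted p = 0.00189). All LKO mice but female replicate 4 lay above all controls of their sex. In males both also passed (log2 fold changes 2.56 and 3.74, edgeR adjusted p = 0.0259 and 0.0166), and each lost that call without any 1 male CRE- library or without male LKO replicate 1 (edgeR adjusted p 0.0687 to 0.0888 and 0.0551 to 0.0724).

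The other 4 fell. Aldh1l1, the cytosolic counterpart and one of the abundant folate enzymes of liver, was at 1199.9, 1654, 1276 and 1423 CPM in male CRE- and 634, 754, 964 and 788 CPM in male LKO mice. Among females it stood at 1769.8, 1604, 1638 and 2176 CPM in CRE- and 744, 1006, 717 and 970.2 CPM in LKO mice. Every LKO mouse lay below every control of its sex, and the mean effect was -0.94 ± 0.14 (SE) (edgeR adjusted p = 0.00128). Dmgdh, which oxidises the dimethylglycine that Bhmt releases, was at 309.8, 533, 356 and 342 CPM in male CRE- and 269, 303, 269 and 304 CPM in male LKO mice, and at 486, 688, 607 and 632 and 188, 346, 264 and 355 CPM in female CRE- and LKO mice. Again no LKO mouse reached a control of its sex, and the same held for Mthfd1, the cytosolic trifunctional folate enzyme. In the mean effect Mthfd1 fell by 0.64 (edgeR adjusted p = 0.00718), Shmt1, the cytosolic serine hydroxymethyltransferase, fell by 0.85 (edgeR adjusted p = 0.014), and Dmgdh fell by 0.75 (edgeR adjusted p = 0.0157), each on the log2 scale over 8 LKO and 8 CRE- mice. Shmt1 was at 143, 232, 139 and 169 CPM in male CRE- and 116, 161, 121 and 132 CPM in male LKO mice, which overlapped, and its male value did not pass (-0.36 ± 0.24 (SE), edgeR adjusted p = 0.673). It was at 224, 242, 238 and 280.0 CPM in female CRE- and 56.0, 137, 118 and 80.1 CPM in female LKO mice, which did not overlap, and passed in females too (-1.33 ± 0.25 (SE), edgeR adjusted p = 0.0136). Shmt1 kept the female call whichever 1 library was left out and lost it with each sex fitted alone (edgeR adjusted p = 0.0605) and without the 3 libraries that stood apart (-0.93, edgeR adjusted p = 0.0612). Mthfd2, Aldh1l1, Mthfd1 and Dmgdh passed in females as well, and lost that call without female CRE- replicate 4 (all of them), without female CRE- replicates 2 or 3 (all but Aldh1l1), without female LKO replicate 1 (Mthfd2 and Mthfd1) or without female LKO replicate 4 (Mthfd1), with edgeR adjusted p of 0.0512 to 0.0881. All 4 also lost it with each sex fitted alone (edgeR adjusted p = 0.0707, 0.0617, 0.0779 and 0.0758) and without the 3 libraries that stood apart (log2 fold changes 1.61, -1.04, -0.58 and -0.96, edgeR adjusted p = 0.156, 0.0612, 0.134 and 0.0709).

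**Figure D4:**
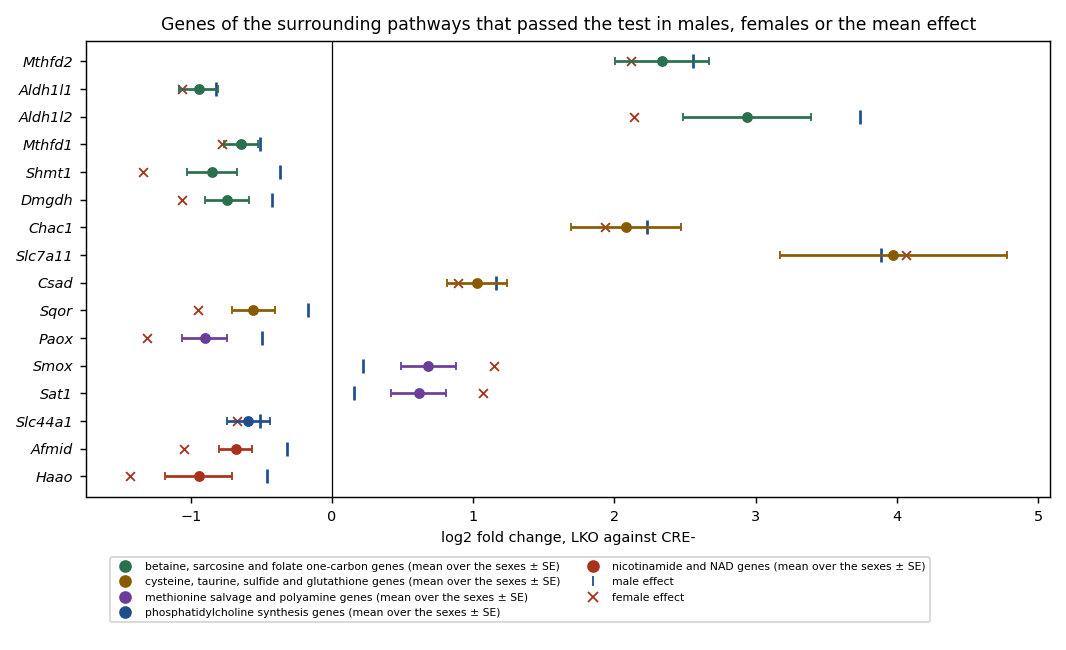
Log2 fold change of LKO over CRE- (horizontal axis) for the 16 named genes of the surrounding pathways that passed in males, in females or in the mean effect, with points and SE bars for the mean over the sexes, ticks for males and crosses for females. Mthfd2 and Aldh1l2 lie to the right at 2.34 and 2.94, and Aldh1l1, Mthfd1, Shmt1 and Dmgdh lie to the left between -0.94 and -0.64.

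Below transsulfuration lie the genes of cysteine, taurine, sulfide and glutathione, of which 17 of 18 were tested. In the mean effect 3 of the 17 passed by edgeR, all higher (2.86% of all genes). Of the 17, 10 were at an unadjusted p under 0.05, as were 2647 of the 16742 genes. DESeq2 called 5 of them, where it called 1034 genes. In females edgeR called 1 of the 17 (4.24% of all genes), 11 were at an unadjusted p under 0.05 (3584 of all genes), and DESeq2 called 8 (1816 of all genes). In males edgeR called 0 of the 17 (0.454% of all genes), 6 were at an unadjusted p under 0.05 (1595 of all genes), and DESeq2 called 3 (339 of all genes). Chac1, which degrades glutathione, was at 2.64, 3.43, 2.86 and 3.37 CPM in male CRE- and 20.9, 12.3, 13.9 and 10.6 CPM in male LKO mice. In females it was at 4.84, 1.56, 1.82 and 2.35 CPM in CRE- and 8.41, 3.89, 25.1 and 2.81 CPM in LKO mice, where replicate 3 was high and replicates 2 and 4 lay within the controls. Its mean effect was 2.08 ± 0.39 (SE) (edgeR adjusted p = 0.00719), and 1.57 without female LKO replicate 3. In the fit over all 16 libraries Chac1 passed in neither sex (2.23 ± 0.55 (SE) in males and 1.93 ± 0.55 (SE) in females, edgeR adjusted p = 0.103 and 0.055). In males it passed with each sex fitted alone (2.21, edgeR adjusted p = 0.00301), without female LKO replicate 3 (2.22, edgeR adjusted p = 0.0208) and by DESeq2 (adjusted p = 0.00326). In females it passed without CRE- replicate 1 (2.40) or LKO replicates 2 (2.20) or 4 (2.26, edgeR adjusted p = 0.0466, 0.0256 and 0.0377) and by DESeq2 (adjusted p = 0.00565), and it was 0.92 without LKO replicate 3. Csad, which makes hypotaurine from cysteine sulfinate, was at 342, 379, 375 and 351 CPM in male CRE- and 1102, 819, 614 and 705 CPM in male LKO mice, which did not overlap. In females, where LKO mice overlapped the controls through CRE- replicate 2, the levels were 141, 443, 319.9 and 159.7 CPM in CRE- and 418, 577, 509 and 467 CPM in LKO mice. In the fit over all 16 libraries it passed in neither sex (1.16 ± 0.30 (SE) in males and 0.89 ± 0.30 (SE) in females, edgeR adjusted p = 0.124 and 0.096), while it passed in males with each sex fitted alone (1.15, edgeR adjusted p = 0.042) and by DESeq2 in males and females (adjusted p = 0.0117 and 0.0284). The mean effect was 1.03 ± 0.21 (SE) (edgeR adjusted p = 0.0152).

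Slc7a11, the cystine importer, was near the limit of detection in controls. It was at 0.527, 0.312, 0.312 and 0.225 CPM in male CRE- and 18.3, 1.54, 0.348 and 0.432 CPM in male LKO mice. Levels in females were 0.0444, 0.0779, 0 and 0 CPM in CRE- and 0.705, 0.548, 0.732 and 0.405 CPM in LKO mice. Female LKO mice were all above the controls, and male LKO replicate 1 stood far above all other libraries. The mean effect of 3.98 ± 0.80 (SE) (edgeR adjusted p = 0.013) was 2.61 without that library, and with so few reads in controls its size is not firm. In the fit over all 16 libraries Slc7a11 passed in neither sex, and its male value was 1.14 without male LKO replicate 1. In females it passed without that library (4.09, edgeR adjusted p = 0.0138) and with a replicate block (4.57, edgeR adjusted p = 0.0257). DESeq2 called it in males and in females (adjusted p = 0.0028 and 0.00327). Sqor, which oxidises sulfide, fell in females (-0.95 ± 0.22 (SE), edgeR adjusted p = 0.0268, 4 of 4 LKO mice lower) and lost that call without female CRE- replicates 2, 3 or 4 or female LKO replicates 1 or 4 (edgeR adjusted p 0.0607 to 0.0807), with each sex fitted alone (0.0907) and without the 3 libraries that stood apart (-0.62, edgeR adjusted p = 0.163). The most abundant gene of the list per length, Cdo1, which oxidises cysteine, was at 1980.4, 2586, 2272 and 2276 CPM in female CRE- and 969, 1288, 1208 and 2013 CPM in female LKO mice (log2 fold change -0.73 ± 0.22 (SE), edgeR adjusted p = 0.0692, and 0.0307 without LKO replicate 4).

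Of the 14 methionine salvage and polyamine genes, 3 passed in females by edgeR, where 4.24% of all genes did. At an unadjusted p under 0.05 there were 6, where 3584 of the 16742 genes were. DESeq2 called 4, where it called 1816 genes. Paox, which oxidises acetylated polyamines, fell, from 59.1, 64.2, 63.6 and 81.1 CPM in CRE- to 23.5, 24.4, 25.4 and 35.0 CPM in LKO mice (-1.31 ± 0.23 (SE), edgeR adjusted p = 0.00939, 4 of 4 lower), and passed in the mean effect (-0.90 ± 0.16 (SE), edgeR adjusted p = 0.00509). The spermine oxidase gene Smox rose in females (1.14 ± 0.28 (SE), edgeR adjusted p = 0.0331, 4 of 4 higher) but lost the call without any 1 female CRE- library or without female LKO replicate 4, where it was 0.71 (edgeR adjusted p 0.0504 to 0.103). Sat1, which acetylates polyamines, rose in females (1.07 ± 0.27 (SE), edgeR adjusted p = 0.0407, 4 of 4 higher) but lost the call without male CRE- replicate 1, male LKO replicates 2, 3 or 4, any 1 female CRE- library, or female LKO replicates 1 or 4 (edgeR adjusted p 0.0512 to 0.134). Smox and Sat1 also lost it with each sex fitted alone (edgeR adjusted p = 0.111 and 0.0758) and without the 3 libraries that stood apart (0.69 and 0.57, edgeR adjusted p = 0.156 and 0.264), and Paox kept it in both fits. The most abundant of the list per length was Oaz1, the antizyme gene, with a female log2 fold change of -0.63 ± 0.31 (SE) (edgeR adjusted p = 0.258), or -0.82 without LKO replicate 2 and -0.38 without LKO replicate 1.

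Of the 16 nicotinamide and NAD genes edgeR called 2, both lower, in females (4.24% of all genes) and the same 2 in the mean effect (2.86% of all genes). At an unadjusted p under 0.05 there were 9 in females and 7 in the mean effect, where 3584 and 2647 of the 16742 genes were. DESeq2 called 6 and 3, where it called 1816 and 1034 genes. Afmid, the formamidase, was at 159.5, 207, 173 and 195 CPM in female CRE- and 66.3, 94.9, 85.1 and 109 CPM in female LKO mice. The groups did not overlap, and it fell by 1.05 in females (SE 0.17, edgeR adjusted p = 0.00622) and by 0.68 in the mean effect (edgeR adjusted p = 0.00397). With each sex fitted alone the female value had an edgeR adjusted p of 0.0501. Haao, which acts on the way to quinolinate, fell in females (-1.43 ± 0.34 (SE), edgeR adjusted p = 0.0305, 4 of 4 lower) and lost that call without female CRE- replicates 2, 3 or 4 or female LKO replicates 1 or 4 (edgeR adjusted p 0.0623 to 0.0834), with each sex fitted alone (0.0813) and without the 3 libraries that stood apart (-1.02, edgeR adjusted p = 0.112). Its mean effect (-0.94 ± 0.24 (SE), edgeR adjusted p = 0.0404) was lost without male CRE- replicates 1, 2 or 4, any 1 male LKO library, female CRE- replicates 2, 3 or 4, or female LKO replicates 3 or 4 (edgeR adjusted p 0.0552 to 0.0933) and with upper-quartile factors (0.0585). Tdo2, the most abundant of the list per length, had a female log2 fold change of -0.58 ± 0.37 (SE) (edgeR adjusted p = 0.403), which was -1.05 without LKO replicate 2 and -0.27 without LKO replicate 1.

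The other lists held 1 call. Among phosphatidylcholine genes (12 of 13 tested) the choline transporter gene Slc44a1 had a mean effect of -0.59 ± 0.15 (SE) (edgeR adjusted p = 0.0454). It was lost without male CRE- replicates 2, 3 or 4, male LKO replicates 1, 2 or 4, any 1 female CRE- library, or female LKO replicates 2, 3 or 4 (edgeR adjusted p 0.0508 to 0.0963), and was -0.73 without female LKO replicate 1. In females Slc44a1 did not pass in the fit over all 16 libraries but passed without LKO replicate 1 (-0.94, edgeR adjusted p = 0.0173), without the 3 libraries that stood apart (-0.98, edgeR adjusted p = 0.025) and by DESeq2 (adjusted p = 0.0347). In females edgeR called 0 of the 10 other methionine cycle genes (2 at an unadjusted p under 0.05, 1 by DESeq2), 0 of the 16 other methyltransferase and creatine genes (3 and 1) and 0 of the 12 phosphatidylcholine genes (3 and 2). Of all 16742 genes edgeR called 4.24% in females, 3584 were at an unadjusted p under 0.05, and DESeq2 called 1816. The most abundant per length of those lists were Bhmt2 (female log2 fold change -0.79 ± 0.24 (SE), edgeR adjusted p = 0.0686, 0.0174 without LKO replicate 4, and adjusted p = 0.0251 by DESeq2), Inmt (-0.78 ± 0.52 (SE), edgeR adjusted p = 0.419) and, for phosphatidylcholine, Pcyt2 (-0.57 ± 0.25 (SE), edgeR adjusted p = 0.2). Leaving out female LKO replicate 2 gave -1.30 for Inmt and -0.76 for Pcyt2, while Inmt was -0.44 without female CRE- replicate 3 and Pcyt2 was -0.35 without female LKO replicate 1. Without the 3 libraries that stood apart Bhmt2 passed in females (-0.9, edgeR adjusted p = 0.0483) and in the mean effect (-0.68, edgeR adjusted p = 0.0111). Its mean effect also passed without female LKO replicate 4 (edgeR adjusted p = 0.00723) and by DESeq2 (adjusted p = 0.02). With a replicate block Bhmt2 passed in females and in the mean effect (edgeR adjusted p = 0.0267 and 0.0335).

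Sequence just upstream of the genes was read for 3 elements tied to these pathways in the literature and 1 general one. Cyclic AMP, the second messenger of glucagon, acts through the cAMP response element TGACGTCA and its shorter core TGACG, which lies within it, and amino acid shortage acts through the C/EBP-ATF response element TGATGCAA, while the GC box GGGCGG is common near transcription starts. In the 250 bases before the canonical start (GENCODE vM39, GRCm39), on both strands, the shares of 21757 windows with a match were 1.7%, 18%, 0.887% and 36.3%. Among the 9 genes 0 windows held the full or the shorter cAMP element or the C/EBP-ATF element, and 4 held a GC box. Of the named pathway genes Chac1 held 1 C/EBP-ATF element and 1 shorter cAMP core, and Slc7a11 held 2 C/EBP-ATF elements. The other named genes that rose (Mthfd2, Aldh1l2, Csad, Smox and Sat1) held neither of these elements, and the shorter cAMP core was also found in Shmt1, which fell, and in Oaz1, which did not pass. The windows of Cbs (chr17:31856213-31856462, minus strand), Chac1 (chr2:119181439-119181688, plus strand) and Slc7a11 (chr3:50398064-50398313, minus strand) are shown because Cbs was the member that passed and the windows of Chac1 and Slc7a11 were the only ones read that held the C/EBP-ATF element. Capitals mark the GC box in Cbs and the C/EBP-ATF and cAMP letters in the others:
Cbs: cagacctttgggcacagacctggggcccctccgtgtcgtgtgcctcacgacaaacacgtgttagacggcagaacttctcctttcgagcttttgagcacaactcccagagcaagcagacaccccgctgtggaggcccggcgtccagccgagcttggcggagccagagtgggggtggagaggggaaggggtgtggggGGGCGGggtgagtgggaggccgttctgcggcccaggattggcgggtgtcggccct
Chac1: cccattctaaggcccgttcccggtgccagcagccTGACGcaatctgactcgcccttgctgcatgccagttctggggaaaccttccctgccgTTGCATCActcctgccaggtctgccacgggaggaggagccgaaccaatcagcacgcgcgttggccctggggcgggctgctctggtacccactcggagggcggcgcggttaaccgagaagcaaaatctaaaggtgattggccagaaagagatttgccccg
Slc7a11: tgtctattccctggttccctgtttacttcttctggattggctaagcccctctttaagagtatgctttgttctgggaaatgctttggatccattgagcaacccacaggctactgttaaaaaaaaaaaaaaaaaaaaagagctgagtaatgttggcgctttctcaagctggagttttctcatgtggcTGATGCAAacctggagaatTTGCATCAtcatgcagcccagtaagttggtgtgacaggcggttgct
A match describes letters in this window, and its absence says only that these letters are not there.

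Markers of cell types were then read in the same libraries. In males edgeR called 0 in each list given here, with 0 at an unadjusted p under 0.05 and 0 by DESeq2 except in the neutrophil, erythroid and periportal lists, whose counts are given below. Over all genes tested edgeR called 0.454% in males and 4.24% in females. In females 3584 of the 16742 genes were at an unadjusted p under 0.05, and DESeq2 called 1816. The same counts in males were 1595 and 339. The summed level of 6 hepatocyte markers was 117740, 108950, 113280 and 131490 CPM in female CRE- and 56220, 90245, 90035 and 71154 CPM in female LKO mice, and in males it was 67035, 92616, 103760 and 94159 CPM in CRE- and 62294, 73001, 89473 and 74732 CPM in LKO mice. The female sums did not overlap, so the sum of the hepatocyte markers, like Gnmt, Ahcy and Cbs, was lower in every female LKO mouse than in any female control. Alb, whose range is given above, weighs heavily in these sums, so they do not read the 6 markers alike. By edgeR 0 of these 6 passed in females (1 at an unadjusted p under 0.05, 1 by DESeq2).

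The 8 macrophage markers, led by Cd5l per length, summed to 678, 519, 568 and 967 CPM in female CRE- and 3701, 867, 1979 and 1084 CPM in female LKO mice. In males the sums were 791, 431, 248 and 1156 CPM in CRE- and 1026, 579.9, 659.7 and 588 CPM in LKO mice. Female LKO replicate 1 was the highest of all, replicate 2 lay within the controls, and 1 of the 8 passed in females by edgeR, higher in LKO mice (8 at an unadjusted p under 0.05, 7 by DESeq2). The 6 proliferation markers, led by Ube2c, summed to 10.3, 9.05, 4.98 and 18.7 CPM in female CRE- and 79.8, 17.1, 33.6 and 36.0 CPM in female LKO mice. Of the 6 markers, 5 passed in females by edgeR, all higher (4.24% of all genes), with 6 at an unadjusted p under 0.05 and 6 by DESeq2. Their sums in males were 12.5, 6.19, 21.5 and 10.8 CPM in CRE- and 13.9, 8.50, 13.9 and 5.73 CPM in LKO mice. Female LKO replicate 1 was again the highest and replicate 2 again within the controls.

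Neutrophil markers, led by S100a9 and with Ly6g at 0 in some libraries, summed to 36.6, 19.5, 16.7 and 17.7 CPM in female CRE- and 116, 43.3, 66.1 and 588 CPM in female LKO mice. In males they summed to 84.4, 19.9, 16.2 and 168 CPM in CRE- and 26.2, 15.9, 12.4 and 11.99 CPM in LKO mice. The female groups did not overlap, with LKO replicate 4 far above all others. Of the 5 tested, 2 passed in females by edgeR, both higher (4.24% of all genes). All 5 were at an unadjusted p under 0.05 in females, and DESeq2 called 5. For the difference between the sexes edgeR called 0 of the 5. There 5 were at an unadjusted p under 0.05 (2672 of all genes), and DESeq2 called 5 (371 of all genes). In males all 5 leaned the other way, lower in LKO mice, and edgeR called 0 (5 at an unadjusted p under 0.05, 1 by DESeq2), with overlapping sums only through LKO replicate 1. The 6 endothelial markers, led by Clec4g, summed to 196, 256, 253 and 251 CPM in female CRE- and 363, 254, 243 and 289.8 CPM in female LKO mice, with overlap. Of the 6 endothelial markers, 1 passed in females by edgeR, higher (3 at an unadjusted p under 0.05, 2 by DESeq2). Male sums were 149, 239, 193 and 201 CPM in CRE- and 237, 228, 258 and 242 CPM in LKO mice.

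The 5 erythroid markers, led by Hbb-bs, summed to 768, 626, 558 and 1039 CPM in male CRE- and 196, 393, 306 and 492 CPM in male LKO mice. These did not overlap, and by edgeR 0 of 5 passed (4 at an unadjusted p under 0.05, 0 by DESeq2). Female sums were 542, 483, 389 and 787 CPM in CRE- and 407, 869, 304 and 1650.4 CPM in LKO mice, with overlap and with LKO replicate 4 the highest of all 16.

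Markers of the zones of the liver lobule were read as well. Pck1, which leads the periportal list per length, encodes an enzyme of gluconeogenesis, and the paper describes glucagon as inducing genes of that pathway. Its level therefore cannot tell a change of zone from loss of that signal, and neither was tested. The 6 periportal markers, led by Pck1, summed to 4103, 3715, 3342 and 3509.6 CPM in male CRE- and 1754, 1273, 2846 and 1736 CPM in male LKO mice, which did not overlap. Female sums were 2076, 2755, 3591 and 2386 CPM in CRE- and 1401, 4164, 1493 and 1297 CPM in LKO mice, where replicate 2 was the highest of all 16 and the other 3 lay below the controls. By edgeR 1 of the 6 passed in females, lower (4.24% of all genes), with 4 at an unadjusted p under 0.05 and 2 by DESeq2. In males edgeR called 0 of the 6 (3 at an unadjusted p under 0.05, 1 by DESeq2). The 7 pericentral markers, led by Cyp2e1, summed to 6726, 8216, 9159.6 and 9166 CPM in female CRE- and 2748, 6591, 8716 and 11563 CPM in female LKO mice, with overlap. In males they summed to 7567, 11566, 1992 and 8512 CPM in CRE- and 5715, 12400, 7661 and 11359 CPM in LKO mice, and edgeR called 0 of 7 in either sex (0 at an unadjusted p under 0.05, 0 by DESeq2). The part of all these cell markers in the values of Cbs, Gnmt, Ahcy, Mat2a and the pathway genes was not tested.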

How the data were processed

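Livers of 16 aged mice (4 groups of 4, male and female, CRE- and LKO) were read as poly-A RNA. The gene counts were made by the authors with STAR 2.7.1a on GRCm39 and featureCounts 2.0.6, and were deposited as raw counts. Reads rather than pairs were counted (84.1% of counts from 1 to 20 are even), and multi-mapping reads were left out. Libraries held 33268424 to 56488920 counted reads.

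In R 4.3.3, genes were filtered with filterByExpr (minimum count 10), scaled by TMM and fitted over all 16 libraries with edgeR 4.0.16. There were 5 contrasts. Alternatives were DESeq2 1.42.0, RLE and upper-quartile factors, no filter, each sex alone, a replicate block, an adjusted p under 0.01 and each library left out. A fit without 3 libraries was added after seeing the data.

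Named genes are all members, up to 6 genes of smallest p per pathway list among those that passed, the most abundant gene of each list per length, the 3 genes most like Cbs, and Gcgr. The members and lists were chosen with earlier results of these data known. Copies were searched with blastn 2.17.0 and sequences read with samtools 1.23.1 from GRCm39. The fits were tested on simulated data with the same spread for every gene, changes in female LKO mice alone and no libraries that stood apart. There DESeq2 called more unchanged genes than edgeR did in females, and neither called any in males. The real libraries differ from that setting, so this does not show which method is nearer the truth here.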

Additional observations from a re-analysis of the deposited data

Results flagged for a closer look

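Of 44 groups of 4 mice that were checked for a value far from the other 3, 4 held one, where about 1 in 20 groups would by chance. Mat1a was at 3954 CPM in male CRE- replicate 2, above the rest of its group, and the male log2 fold change changed sign without it. Bhmt was at 3881 CPM in female LKO replicate 4, above the rest of its group, and without this library the mean effect of Bhmt passed. Cbs was at 570.7 CPM in female LKO replicate 2, the mouse nearest to the controls. Gcgr was at 127.3 CPM in male CRE- replicate 3, within the range of the male LKO mice. No value was removed from the tests that are reported first.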

How the results depend on the processing

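The counts of DEGs depended on the method. DESeq2 called 339 genes in males, 1816 in females, 371 for the difference between the sexes, 1034 in the mean effect and 509 between female and male CRE- mice, with 4 of the 9 genes in females and 4 in the mean effect. Upper-quartile factors left 0 of the 9 in females by edgeR (5 at an unadjusted p under 0.05), where 552 genes were called and 3512 were at an unadjusted p under 0.05. Without a filter on low counts edgeR called 0 of the 9 in females and 0 in the mean effect, where it called 569 and 472 genes. It then called 12 genes for the difference between the sexes. With each sex fitted alone it called 119 genes and 0 of the 9 in females. At an adjusted p under 0.01 it called 22 genes in males, 51 in females, 152 in the mean effect and 54 between the sexes of controls, with 0 of the 9 in females and 0 in the mean effect.

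With a replicate block 1244 genes passed in females, with 3 of the 9 (Gnmt, Ahcy and Cbs). In the mean effect 629 genes passed with the block, with 3 of the 9 (Gnmt, Bhmt and Cbs). No label ties a replicate number to a shared animal, litter or day. The numbers are those of the sample titles. The library names of the counts table carry other numbers for male CRE- replicate 4 and female LKO replicates 3 and 4. A pairing by library name was not tested. Libraries of the same title number correlated at -0.25 to 0.332 over 24 pairs, 11 of them over 0.1. Of the 16 libraries 10 were nearest to their own number, and no chance level was worked out for this count. The correlations fall short of a pairing in every pair, so the block was not used for the values reported first.

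Leaving out 1 library at a time gave 26 to 111 DEGs in males, 87 to 1310 in females, 0 to 14 for the difference between the sexes, 299 to 598 in the mean effect and 68 to 213 between the sexes of controls. Of the 9 genes 0 to 2 passed in females and 0 to 2 in the mean effect. Log2 fold changes near 0 changed sign: Mat1a in males (-0.198 to 0.129), Cth in females (-0.671 to 0.122) and in the mean effect (-0.154 to 0.240), Nnmt in females (-0.697 to 0.214), Pemt in the mean effect (-0.197 to 0.0288) and the sex difference of Bhmt (-0.568 to 0.281).

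Without the 3 libraries farthest from their groups, a fit chosen after seeing the data, 123 genes passed in males, 141 in females, 445 in the mean effect and 5 for the difference between the sexes, with 0 of the 9 in females and 0 in the mean effect. Cth (0.15) and Nnmt (0.13) in females and the sex difference of Bhmt (-0.702) changed sign.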

Other observations

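The Cbs call lay close to the threshold and was lost in most fits that left out 1 library. Groups held 4 mice, and the errors for Gnmt, Bhmt and Nnmt were wide. Some markers of macrophages, neutrophils, endothelium and proliferation passed in females, the summed hepatocyte markers were lower in female LKO mice although none of the 6 passed by edgeR, and levels in bulk liver do not separate cell number from expression. Near-identical copies of Bhmt and Ahcy exist, and whether reads were lost to them was not measured. Messenger levels do not give enzyme activity or the amounts of S-adenosylmethionine and homocysteine, which were not analysed here. Calls of single marker genes were not tried with libraries left out.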
